A study of Mus musculus with 6 samples.

Results

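The genes of the NMDA receptor subunits were examined in the hippocampus of mice lacking Trpc4. The members were 7 genes, Grin1, Grin2a, Grin2b, Grin2c, Grin2d, Grin3a and Grin3b, and each was read from the probe set that names it alone and has the highest mean signal over all arrays. Of these, 6 had such a probe set, out of 22180 genes that could be read in this way. Grin1 was not analysed here, because the platform annotation used pairs no single-gene probe set with it. RNA came from male mice of C57BL/6J background, aged to postnatal day 56, in 3 samples bearing the label Trpc4 knock out and 3 bearing the label Trpc4 wild type, each on 1 Affymetrix array. The knockout is labelled as a deletion of the gene, with no cell type given for it, and the labels state neither whether littermates were used nor whether tissue of several animals was pooled. The question was how the signal of each subunit gene in knockout compared with that in wild type, and all differences are knockout minus wild type on the log2 scale.

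NMDA receptors are glutamate-gated cation channels that join the obligatory subunit GluN1, encoded by Grin1, with GluN2 subunits (Grin2a to Grin2d) or GluN3 subunits (Grin3a and Grin3b). GluN2 binds glutamate, GluN1 and GluN3 bind glycine or D-serine, and the channel passes calcium once depolarisation removes a block by magnesium. In the hippocampus these receptors are known for their part in synaptic plasticity and memory, and GluN2A joins and partly replaces GluN2B at synapses after birth. Trpc4 encodes a calcium-permeable TRPC channel opened downstream of receptors that couple to Gq.

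Promoter sequence was taken from RefSeq, whose table had an entry for 3 of the 6 measured genes, Grin2c, Grin2d and Grin3b. Grin2d and Grin2c are shown because they are the GluN2 genes with an entry, with differences of 0.15 for Grin2d and -0.02 for Grin2c that are described below. The 250 bases before each start are given 5′ to 3′, with capitals marking the GC box GGGCGG on either strand, overlaps counted.
Grin2d, GRCm38.p6 chr7:45866682-45866931, minus strand: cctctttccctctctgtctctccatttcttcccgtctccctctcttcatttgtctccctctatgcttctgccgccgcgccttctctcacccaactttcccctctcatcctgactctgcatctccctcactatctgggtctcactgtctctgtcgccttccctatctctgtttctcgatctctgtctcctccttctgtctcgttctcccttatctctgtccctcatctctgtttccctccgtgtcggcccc
Grin2c, GRCm38.p6 chr11:115267244-115267493, minus strand: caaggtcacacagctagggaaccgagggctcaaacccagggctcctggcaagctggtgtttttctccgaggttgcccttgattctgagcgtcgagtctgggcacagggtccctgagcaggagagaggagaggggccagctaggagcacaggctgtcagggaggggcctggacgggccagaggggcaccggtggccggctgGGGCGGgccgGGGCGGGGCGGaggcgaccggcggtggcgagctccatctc
The Grin2c window held 3 GC boxes and had a GC content of 68.8%, while the Grin2d window held 0 and had a GC content of 54.4%. The Grin3b window, at 46.0% GC, also held 0. Of all 32851 promoter windows of this length in the table, 32.7% held the motif. These matches describe the letters of the windows and say nothing of binding.

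No NMDA receptor subunit gene passed the adjusted threshold of 0.05 in limma, and none had an unadjusted p under 0.05. Across all 22180 genes the same fit called 0 genes (0%) after adjustment and 1276 (5.75%) without it. Of the 6 measured subunit genes, 4 had a higher mean in knockout (Grin2a, Grin2b, Grin2d and Grin3a) and 2 a lower one (Grin2c and Grin3b), where 54.9% of all genes had a higher mean in knockout. Their median difference was 0.06 (range -0.17 to 0.15), beside 0.01 over all genes. For none of the 6 did the knockout and wild-type values lie apart, and 10.9% of all genes had groups that did not overlap.

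The array medians lay between 4.73 and 4.75, and arrays correlated at 0.985 to 0.988 across probe sets. The deleted gene itself was lower in every knockout sample: Trpc4 averaged 7.42 ± 0.12 in knockout and 8.12 ± 0.10 in wild type (SD, n = 3 each). That difference of -0.70 had an adjusted limma p of 0.738 and an exact permutation p of 0.1. Which part of the gene its probe set reads was not known here. Markers of the hippocampal fields were set against the median probe set of the array. All 6 measured CA1 markers had means above the array's median probe set, and 4 were higher and 2 lower in knockout, from -0.25 (Wfs1) to 0.26 (Mpped1). The 7 measured CA3 markers and 9 of 10 dentate markers also had means above it. So did 6 of 7 thalamus markers and 3 of 5 measured choroid plexus markers, so this level does not set hippocampal markers apart. Of 8 markers of cerebellar granule cells, 3 (Zic1, Zic2 and Calb2) lay above it. Zic1, at 5.66 in knockout and 6.62 in wild type, differed by -0.96 with groups apart, and Gabra6 was the dimmest of these markers, at 2.43 in knockout and 2.29 in wild type.

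**Figure D1:**
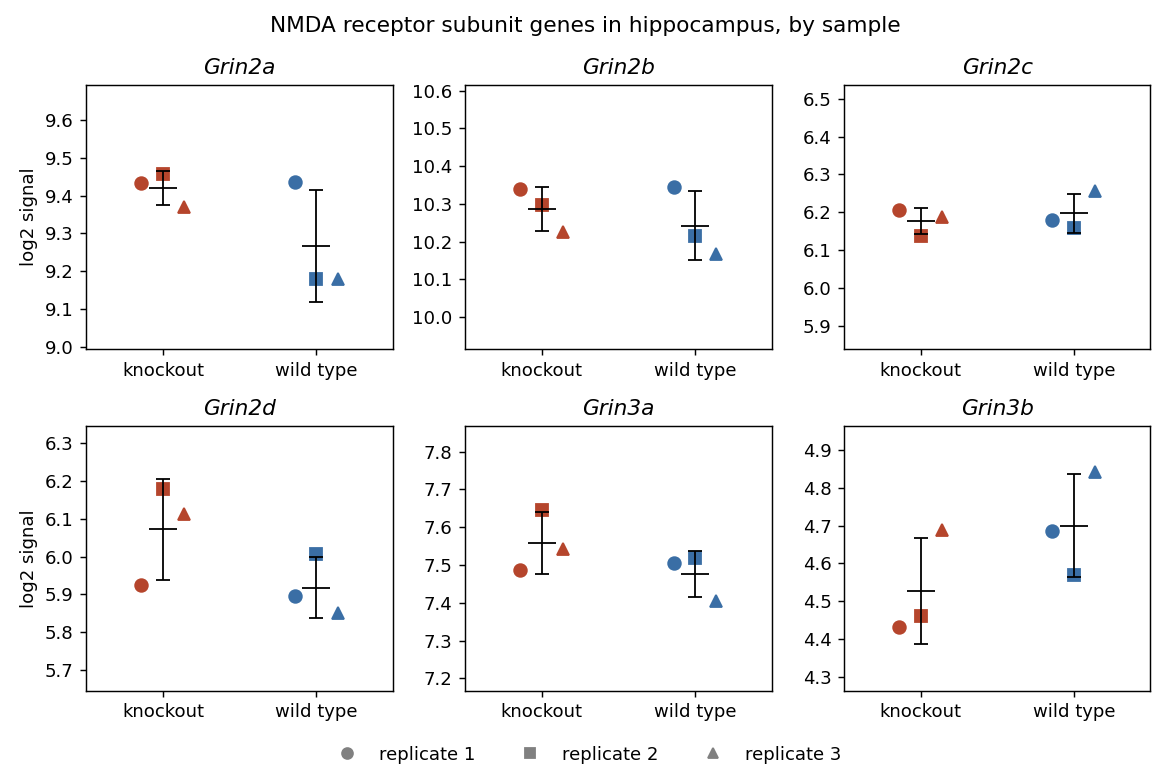
Log2 signal of the 6 measured subunit genes in each sample, with 3 knockout samples left of 3 wild-type samples in every panel. Marker shapes are replicate numbers, horizontal ticks are group means and bars are SDs, and each panel spans the same height on the log2 axis. In no panel are the groups apart, and Grin2c shows the smallest spread.

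Grin2a and Grin2b encode the main GluN2 subunits of adult forebrain. Grin2a had log2 signals of 9.43, 9.46 and 9.37 in knockout replicates 1 to 3, against 9.44, 9.18 and 9.18 in wild-type replicates 1 to 3. The knockout samples lay close together, and wild-type replicate 1 stood among them while the other wild-type samples were lower. The difference of 0.15 had a standard error of 0.09 and a 95% interval of -0.06 to 0.37 (limma, adjusted p = 0.883). Put as a share, signal in knockout stood at 111% of that in wild type, with an interval of 95.8% to 129%. Without single samples the difference ran from 0.11 (without wild-type replicate 2 or 3) to 0.24 (without wild-type replicate 1), and the lowest adjusted limma p among these fits was 0.752.

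Grin2b had the brightest probe set of the family, which sets no order of transcript amount, since probes differ in affinity. Its signals were 10.34, 10.30 and 10.22 in knockout samples, against 10.34, 10.21 and 10.17 in wild-type samples. Again wild-type replicate 1 was as high as the highest knockout sample, and knockout replicate 3 lay beside wild-type replicate 2. The difference was 0.04 ± 0.08 (standard error), and signal in knockout stood at 103% of that in wild type with an interval of 90.6% to 118% (limma, adjusted p = 0.955). Without wild-type replicate 3 it was 0.01 and without wild-type replicate 1 it was 0.10.

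The balance of both genes was read within each sample, where the affinity of the probes drops out of the comparison between genotypes. The log2 ratio of Grin2a over Grin2b was -0.91, -0.84 and -0.85 in knockout samples, against -0.91, -1.03 and -0.99 in wild-type samples. Every knockout ratio was above every wild-type ratio, but replicates 1 of both genotypes were all but equal, at -0.9056 in knockout and -0.9074 in wild type. The mean ratio was -0.87 ± 0.03 in knockout and -0.98 ± 0.06 in wild type (SD, n = 3 each), a difference of 0.11. In an exact two-sided permutation test this gave p = 0.1, and no smaller value is possible with 3 samples a group. It was 1 of 15 pairs of measured subunit genes compared in this way, and the exact p adjusted over the 15 pairs was 0.5. In the other 14 pairs the groups overlapped.

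Grin2c encodes a GluN2 subunit best known from cerebellar granule cells, and in forebrain from astrocytes and some interneurons. Its signals were 6.20, 6.14 and 6.19 in knockout samples, against 6.18, 6.16 and 6.25 in wild-type samples. All 6 values lay within 0.12 of each other, the narrowest range of the measured subunit genes. The difference was -0.02, and the interval of the knockout signal ran from 87.8% to 111% of the wild-type signal (limma, adjusted p = 0.982). The 10 astrocyte markers measured split evenly, 5 higher and 5 lower in knockout, with a median difference of -0.0039.

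Grin2d encodes a GluN2 subunit known in the adult hippocampus mainly from interneurons. It had signals of 5.92, 6.18 and 6.11 in knockout samples, against 5.89, 6.01 and 5.85 in wild-type samples. Knockout replicates 2 and 3 were above every wild-type sample, and knockout replicate 1 lay among the wild-type values. The difference was 0.15 ± 0.09 (standard error), with a 95% interval of -0.06 to 0.37 (limma, adjusted p = 0.883). It was 0.10 without knockout replicate 2 and 0.23 without knockout replicate 1.

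Interneuron markers had the other sign. All 9 measured had a lower mean in knockout, with a median of -0.10 and a range of -0.21 to -0.02, and 1 of the 9 had an unadjusted p under 0.05 in limma, against 5.75% of all genes. The mean deviation of these markers was -0.05, -0.06 and -0.07 in knockout samples, against 0.01, 0.09 and 0.07 in wild-type samples. These means did not overlap between genotypes, but gene by gene the groups lay apart for 1 of the 9, against 10.9% of all genes. Whether marker levels and Grin2d are linked was not tested. In whole tissue, fewer cells of a type and less RNA per cell cannot be told apart.

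Grin3a encodes a GluN3 subunit that lowers the calcium passage of the receptors it joins and is known from young forebrain and some interneurons. Its signals were 7.49, 7.65 and 7.54 in knockout samples, against 7.51, 7.52 and 7.41 in wild-type samples. Knockout replicates 2 and 3 were the highest samples, and wild-type replicate 3 was the lowest. The difference was 0.08, with an interval of -0.10 to 0.27 (limma, adjusted p = 0.928). It was 0.04 without knockout replicate 2 and 0.12 without knockout replicate 1.

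Grin3b encodes the other GluN3 subunit, known mostly from motor neurons of brainstem and spinal cord. It was the dimmest of the measured subunit genes and the only one with a mean under 4.72, the median over the probe sets of the array. Its signals were 4.43, 4.46 and 4.69 in knockout samples, against 4.69, 4.57 and 4.84 in wild-type samples. Knockout replicates 1 and 2 were below every wild-type sample, and knockout replicate 3 lay within the wild-type range. This was the widest difference and the widest error of the 6, at -0.17 ± 0.11 (standard error), with an interval of 74.8% to 105% of the wild-type signal (limma, adjusted p = 0.888). Without single samples it ran from -0.25 (without knockout replicate 3) to -0.10 (without wild-type replicate 3). A background level was not used here, so the Grin3b signal was not set against one.

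A further probe set named Grin2b, Grin2c and Grin2d each, all dimmer than the one that stands for the gene. For Grin2d it read 4.81 ± 0.10 in knockout and 4.60 ± 0.22 in wild type (SD, n = 3 each), a difference of 0.21 beside 0.15 from the brighter set. For Grin2b it differed by 0.09, at a signal of 3.84 in knockout and 3.75 in wild type. For Grin2c it differed by 0.20 with an interval of -0.45 to 0.86, where the brighter set gave -0.02. Its wild-type values ran from 2.84 to 4.12, and its knockout values from 3.70 to 3.82.

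**Figure D2:**
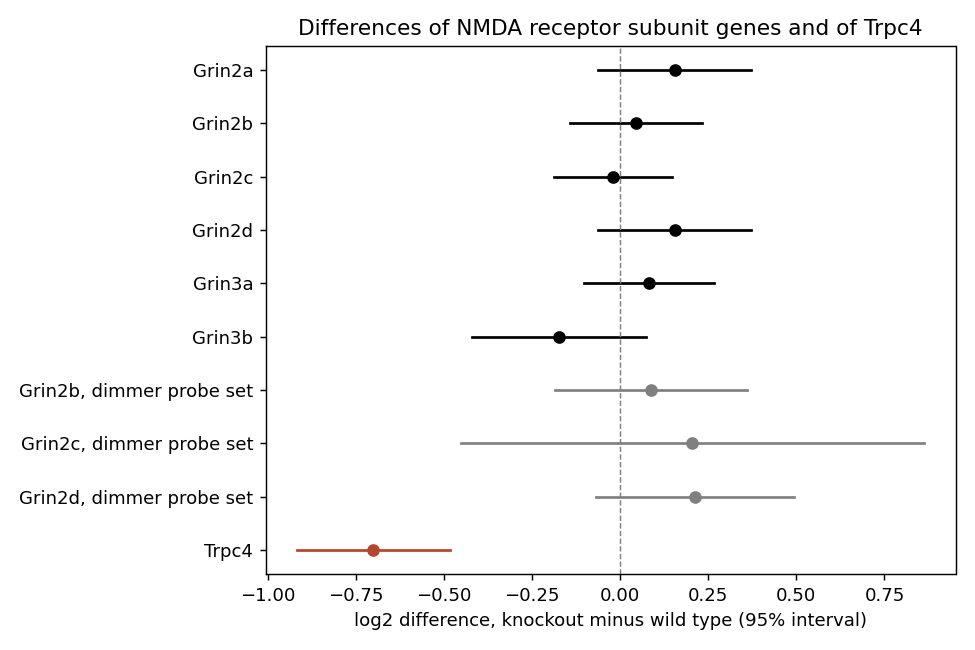
Log2 difference, knockout minus wild type, of the 6 measured subunit genes (black), of the 3 dimmer probe sets of Grin2b, Grin2c and Grin2d (grey) and of Trpc4 (red). Points are estimates and lines are 95% intervals from limma; every subunit interval spans 0, and that of Trpc4 runs from -0.92 to -0.48.

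The samples ranked differently for different subunit genes. Knockout replicate 2 was the highest sample for Grin2a, Grin2d and Grin3a and the lowest for Grin2c. Wild-type replicate 3 was the lowest for Grin2b, Grin2d and Grin3a, level with wild-type replicate 2 as the lowest for Grin2a, and the highest for Grin2c and Grin3b. Leaving it out took the median difference of the 6 genes to 0.03, against 0.06 with all samples. Without wild-type replicate 1 the median was 0.10.

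Markers of cell types also differed between these samples, 0 of them past the adjusted limma threshold. Oligodendrocyte and myelin markers were lower in knockout for 12 of 12 measured, with a median of -0.44. All 12 had an unadjusted p under 0.05 in limma (5.75% of all genes), and for 11 the groups lay apart (10.9% of all genes), though genes of 1 cell type vary together. Their mean deviation was -0.23, -0.51 and 0.07 in knockout samples, against 0.25, 0.15 and 0.26 in wild-type samples. With this score as a covariate, Grin2a differed by 0.11 ± 0.16 and Grin2d by 0.08 ± 0.16 (standard errors). The sign turned for Grin2b (-0.0038 ± 0.14), Grin2c (0.03 ± 0.13), Grin3a (-0.0071 ± 0.14) and Grin3b (0.03 ± 0.16). The score itself differed by -0.45 between genotypes, so in this fit genotype and myelin marker level cannot be told apart. Dentate granule cell markers were higher in knockout for 9 of 10, against 54.9% of all genes. Of the 10, 2 had an unadjusted p under 0.05 in limma (5.75% of all genes), and for 1 the groups lay apart (10.9% of all genes). Mean deviations of the dentate markers were 0.04, 0.20 and -0.03 in knockout samples, against 0.10, -0.19 and -0.12 in wild-type samples. For Grin2a and Grin2b, too, wild-type replicate 1 was high and wild-type replicates 2 and 3 were low. This was not particular to dentate markers. Kinase and phosphatase genes, described below, had mean deviations of 0.04, -0.02 and -0.01 in wild-type replicates 1 to 3. Genes of signalling downstream of calcium entry had 0.06, -0.06 and -0.03, but membrane partners and modulators had -0.04, -0.02 and -0.04. Whether dentate markers and Grin2a are linked was not tested, nor was the part of cell composition in the subunit values.

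**Figure D3:**
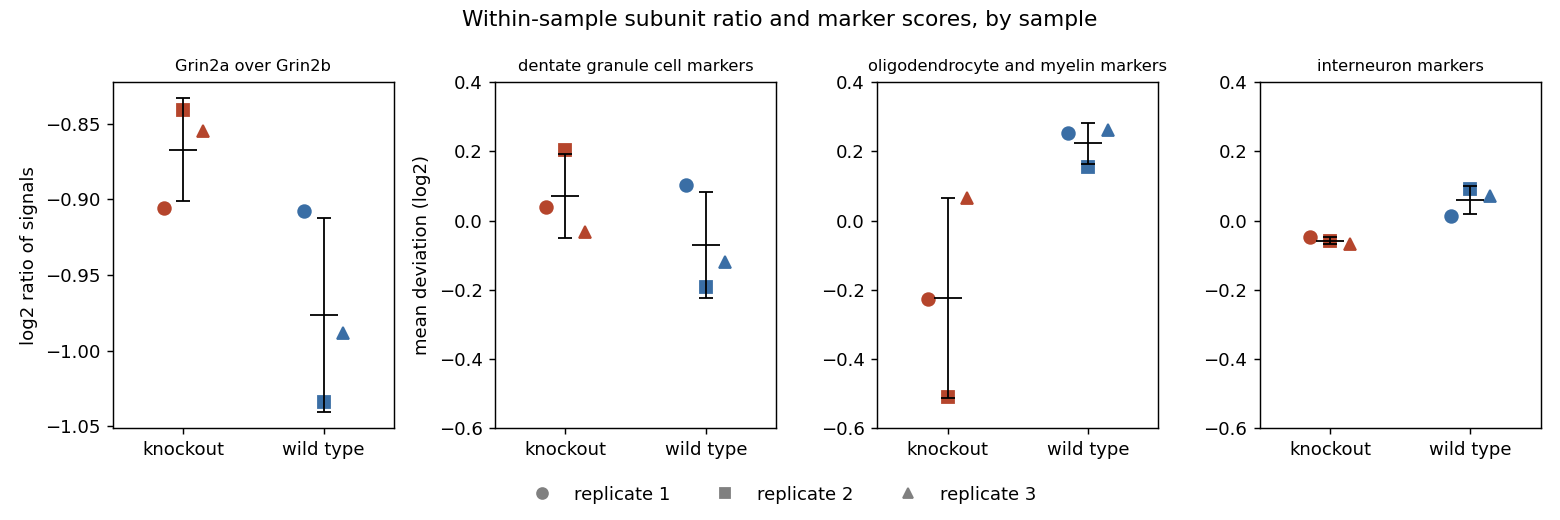
The leftmost panel shows the log2 ratio of Grin2a over Grin2b signal in each sample, and the others the mean deviation of dentate granule cell, oligodendrocyte and interneuron markers from their gene means (log2). Knockout is left of wild type, shapes are replicate numbers, ticks are means and bars are SDs (n = 3 each). The ratios of replicate 1 are nearly equal in both genotypes.

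The genes whose 6 deviations lay closest to those of Grin2a, by root mean square difference over the 6 arrays among 11867 named genes brighter than the array's median probe set, were Sphkap (0.0210), Gtf3c2 (0.0228) and Parp8 (0.0228). Each was high in the knockout samples and wild-type replicate 1 and low in wild-type replicates 2 and 3. Closest to Grin2b were Ptprj (0.0122), Cnksr2 (0.0147), which encodes a postsynaptic scaffold, and Iqce (0.0175). This closeness is a description of these 6 arrays.

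The partners of the receptor were read from lists of ligand supply, scaffolds, enzymes and membrane proteins. Of the 92 measured genes on the 7 lists, 0 passed limma's adjusted threshold, and 2 had an unadjusted p under 0.05, a condition met by 5.75% of all genes. Among the other ionotropic glutamate receptor genes, 8 of 10 had a higher mean in knockout, with a median of 0.06 and a range of -0.09 to 0.11. The kainate receptor gene Grik5 had signals of 8.57, 8.41 and 8.41 in knockout samples, against 8.39, 8.32 and 8.36 in wild-type samples, a difference of 0.11, or 0.06 without knockout replicate 1. Grik1, another kainate receptor gene, differed by -0.09, or -0.05 without knockout replicate 3. The subunit genes of the NMDA receptor ran from -0.17 to 0.15. Their low end was Grin3b alone, the only one dimmer than the array's median probe set, and the next lowest was Grin2c at -0.02. All 10 of the other receptor genes were brighter than that median. No test set both lists against each other.

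Glycine and D-serine are the co-agonists of the receptor, and serine is made by an enzyme chain that ends with phosphoserine phosphatase. Of 14 measured genes of their supply, 10 had a lower mean in knockout, with a median of -0.05. Psph, the gene of that phosphatase, had signals of 6.10, 6.15 and 5.97 in knockout samples, against 6.38, 6.22 and 6.31 in wild-type samples. The groups lay apart, and the difference was -0.22 ± 0.09 (standard error; limma, adjusted p = 0.853). Psat1, the enzyme before it, differed by -0.19, with signals of 7.08, 6.90 and 7.16 in knockout samples, against 7.21, 7.27 and 7.24 in wild-type samples. Without knockout replicate 2 the difference of Psat1 was -0.12. With the myelin covariate the difference was -0.0074 for Psat1 and -0.34 for Psph. In that fit genotype and myelin marker level cannot be told apart. Psph was the list's 1 gene of 14 with an unadjusted p under 0.05, against 5.75% of all genes, and the groups lay apart for 3 of the 14, 2 lower and 1 higher, against 10.9% of all genes.

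Of the 7 measured genes of glutamate release and uptake, 4 had a higher mean in knockout and the median was 0.01. The vesicular transporter gene Slc17a7 differed by 0.15, at 10.90 ± 0.02 in knockout and 10.75 ± 0.07 in wild type (SD, n = 3 each), and its relative Slc17a6 by -0.27, with overlapping groups and a range from -0.40 (without knockout replicate 3) to -0.09 (without knockout replicate 1). Of 26 scaffold and trafficking genes, 20 had a higher mean in knockout, with a median of 0.07. Lin7b, which belongs to a complex that carries receptors along dendrites, differed by 0.26, but by 0.13 without knockout replicate 1. The scaffold gene Shank2 differed by 0.13. Of 15 kinase and phosphatase genes, 8 had a higher mean, with a median of 0.02. Camk2d differed by -0.28, or -0.18 without wild-type replicate 3. Ptpn5, a phosphatase that acts on GluN2B, differed by 0.10, or 0.03 without wild-type replicate 1. Of 8 genes of signalling downstream of calcium entry, 6 had a higher mean, with a median of 0.02. Nos1, whose enzyme is tethered to the receptor by a scaffold, differed by 0.08, or 0.02 without wild-type replicate 3 and 0.12 without wild-type replicate 1. Kalrn differed by 0.07, or 0.02 without wild-type replicate 2 and 0.13 without wild-type replicate 1.

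Among the 12 measured membrane partners and modulators, 8 had a higher mean in knockout and the median was 0.05. Lrp8, a receptor for reelin that is known to couple to NMDA receptors, had signals of 7.83, 7.82 and 7.83 in knockout samples, against 7.58, 7.53 and 7.49 in wild-type samples. The groups lay apart, and the difference was 0.29 ± 0.07 (standard error), which did not pass limma's threshold over all genes (adjusted p = 0.849). Lrp8 was named for having the smallest unadjusted p of the list, and was its 1 gene of 12 under 0.05, against 5.75% of all genes. For 4 of the 12 the groups lay apart, all higher in knockout, against 10.9% of all genes in either direction. The dopamine receptor gene Drd1, at 4.65 in knockout and 4.44 in wild type, differed by 0.22, or 0.13 without knockout replicate 2, and was dimmer than the array's median probe set.

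**Figure D4:**
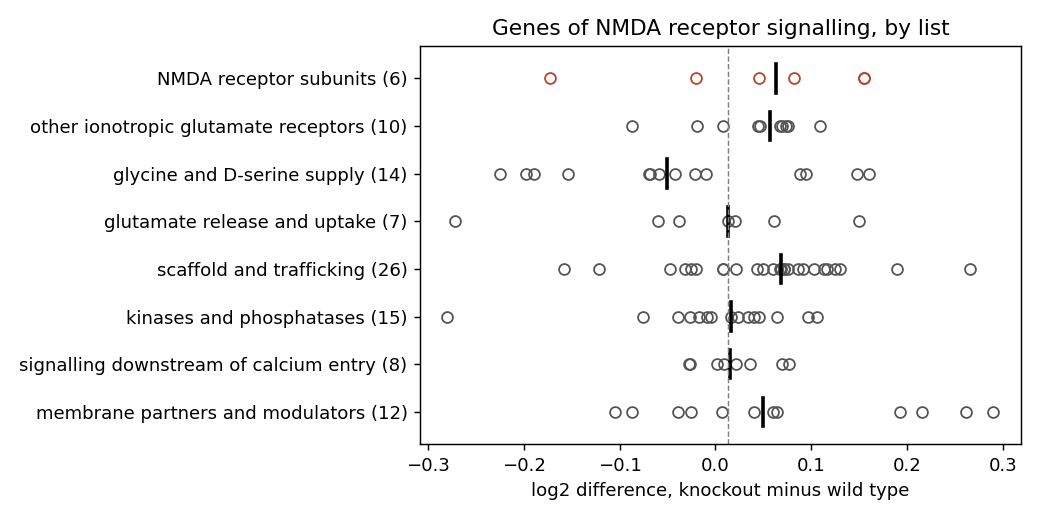
Log2 difference, knockout minus wild type, of each measured gene (circles) on the subunit list (red) and the 7 partner lists, with the number measured in brackets. Black bars are list medians and the dashed line is the median of all genes, 0.01. The subunit genes run from -0.17 to 0.15.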

How the data were processed

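Expression was measured in hippocampal RNA of 6 mouse samples, grouped by the genotype in their titles. The log2 values are those the authors deposited, and the submitters' processing notes name RMA and Affymetrix Power Tools as their source, without versions. RMA puts all arrays on 1 distribution, which hides a shift common to most genes, and it tends to compress fold changes. Since the labels do not state that each replicate is another animal, the spread behind a p-value may be technical.

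Names came from an annotation table of the platform. Of 41345 probe sets, 23521 named 1 gene, and the brightest stood for each of 22180 genes. Genotype was tested with limma 3.58.1 in R 4.3.3, with Benjamini-Hochberg adjustment over all genes at 0.05. The fit was tested on simulated data. Figures used matplotlib 3.10.9. Members and lists were chosen with earlier results of these data known. Of each list, up to 4 genes of smallest unadjusted p could be named and the first 2 were. Wfs1, Mpped1, Zic1, Zic2, Calb2, Gabra6 and Rps13 were chosen after their values were seen. Genes closest to Grin2a and Grin2b were the first 3 by root mean square difference. The planned ratio of the Grin2 genes to Grin1 was not run. Replicate numbers were shared between genotypes, but same-numbered samples deviated together at correlations of 0.07, 0.03 and -0.0038, so they were not treated as pairs. The number of arrays limits the precision.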

Additional observations from a re-analysis of the deposited data

How the results depend on the processing

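The alternatives were other normalizations, trend and robust variance, array weights, the replicate block, a filter that drops dim probe sets, the mean of a gene's probe sets, a myelin covariate and leaving out each sample. Under every one of them 0 subunit genes passed the adjusted threshold. An unadjusted limma p under 0.05 arose for Grin2a with trend and robust variance (0.0484, adjusted 0.801) and without wild-type replicate 1 (0.0220, adjusted 0.752), and for Grin2d without knockout replicate 1 (0.0422, adjusted 0.892). The replicate block left Grin2a at 0.15 (adjusted p 0.846) and changed no call of a subunit gene or of Trpc4. Of all genes 1 was called with trend and robust variance, Trpc4 at -0.70 (adjusted p 0.0378), 0 to 1 without single samples, the 1 being the ribosomal protein gene Rps13 without knockout replicate 1, and 1276 at an unadjusted p under 0.05. Without single samples, the median difference of the subunit genes lay between 0.028 (without wild-type replicate 3) and 0.10, and 4 to 5 of them were higher. The sign of Grin2c turned with the mean of its probe sets (0.092), and it ran from -0.040 to 0.0085 without single samples, above 0 without wild-type replicate 3. With the myelin covariate, Grin2b became -0.0038, Grin2c 0.028, Grin3a -0.0071, Grin3b 0.033 and Nos1 -0.026, and subunit standard errors were larger. With it Kalrn became 0.017, Drd1 0.026, Slc17a7 0.092, Slc17a6 -0.11, Grik1 -0.17, Psph -0.34 and Psat1 -0.0074. The other partner genes named above stood at 0.30 (Lrp8), -0.39 (Camk2d), 0.23 (Lin7b), 0.15 (Shank2), 0.11 (Grik5) and 0.097 (Ptpn5). The causes were not tested. Grin2a over Grin2b lay between 0.08 and 0.14 without single samples. Without single samples Trpc4 ran from -0.77 to -0.65. Alternatives for genes of the partner lists were chosen after seeing the data. The filter on dim probe sets left out Grin3b.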
